A study of Mus musculus with 2 samples.

Results

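Plasma cells, a name used below for every barcode that met the rule, were taken as the barcodes with a UMI (unique molecular identifier, which marks 1 captured RNA molecule) in at least 3 of Jchain, Mzb1, Derl3, Tnfrsf17, Xbp1 and Sdc1, of which Jchain or Mzb1 had to be 1. Barcodes under 300 genes or over 10% mitochondrial UMIs were left out beforehand. The rule found 1239 barcodes among the 68463 kept. Of these, 1166 came from WT (39503 barcodes kept) and 73 from EC-iCD45KO (28960 kept). The members were chosen by the UMI counts of these 6 genes, so the levels of these genes are a description and support nothing further.

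Single-cell RNA-seq was made from mouse aortas, digested and passed over magnetic beads against CD31, a surface protein of endothelial cells (EC) that many leukocytes also carry. The series concerns CD45, the leukocyte phosphatase encoded by Ptprc, in endothelial cells that take on mesenchymal features in atherosclerosis. Both groups were ApoE-deficient mice on a C57BL/6 background that were fed a Western diet. The labels give the WT group no further allele, and the EC-iCD45KO group carried a tamoxifen-inducible, EC-specific CD45 deficiency. The promoter that drives the deletion, the use of tamoxifen in the WT group, the age of the mice and the number of aortas pooled are not given in the sources used here. Each group had 1 library, so no difference below has a replicate check, no test between conditions was made, and a difference between the groups and one between the preparations cannot be told apart.

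Plasma cells are the antibody-secreting end stage of the B cell lineage. When a B cell becomes a plasma cell, the transcription factors IRF4 and BLIMP-1 (Prdm1) replace the PAX5 program of the B cell, and XBP1, a factor of the unfolded protein response, enlarges the endoplasmic reticulum (ER) in which antibody chains are folded and joined. The J chain (Jchain) links IgA and IgM into polymers for export. In ApoE-deficient mice plasma cells are known from the adventitia of the aorta and from lymphoid organs, and their IgM and IgG bind oxidised lipoproteins.

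The plasma cells had a median of 2682.5 UMIs in WT (range 508 to 41715) and 2115 in EC-iCD45KO (863 to 47209), against 1552 and 1438 over all barcodes kept. Barcodes of high depth meet the rule more easily. The deposited libraries hold 92058043 and 88967918 UMIs. Of the cell barcodes, 340 occurred in both libraries, 0 of them among the plasma cells. The 10 deepest plasma cells held 6.08% of the UMIs outside immunoglobulin (Ig) genes of all plasma cells in WT and 61.0% in EC-iCD45KO, so the summed EC-iCD45KO values rest on few barcodes. Ptprc, the targeted gene, was at 217 CPM (UMIs scaled to a total of 1000000 outside Ig genes) in WT barcodes with endothelial markers and at 89.5 CPM in those of EC-iCD45KO. The deleted exons are not given in the sources used here, so this level does not by itself check the deletion.

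The rule genes themselves were spread unevenly. In WT, Jchain was detected in 96.2% of the plasma cells, Xbp1 in 88.3%, Mzb1, an ER protein of antibody-producing cells, in 88.0%, Sdc1 (CD138) in 29.1%, Derl3, of ER-associated degradation, in 24.5% and Tnfrsf17, the survival receptor BCMA, in 7.98%. In EC-iCD45KO the shares were 93.2%, 82.2%, 82.2%, 45.2%, 24.7% and 12.3% in the same order. As a measure of free RNA, T cells of WT, which should lack Jchain, carried it in 17.0% of 5235 barcodes (median 2202 UMIs), and T cells of EC-iCD45KO in 1.04% of 577 (median 2935 UMIs). Derl3 was found in 0.363% of the WT T cells and Tnfrsf17 in 0.0382%. These T cells leave out the barcodes that met the plasma cell rule, 108 of 5343 in WT and 0 of 577 in EC-iCD45KO. The background of the rule genes in WT was thus measured without barcodes chosen by those same genes.

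The Jchain background in T cells was thus higher in the WT library, which also had the larger share of plasma cells, and its part in that share was not tested. Of all WT barcodes with T cell markers, 2.02% also met the plasma cell rule, as did 4.01% of those with B cell markers, 3.70% of those with macrophage markers and 5.53% of those with fibroblast markers. In EC-iCD45KO the same shares were 0% (0 of 577, interval up to 0.637%), 1.15%, 0.144% and 0.746%. Just inside the rule, the 903 WT members with 3 rule genes had a median of 4.75% Ig UMIs, and just outside it the 3879 WT barcodes with 2 rule genes had 1.05%. In EC-iCD45KO the 54 members with 3 rule genes had a median of 19.8%, the 894 barcodes with 2 had 0%, and 16 barcodes with 3 rule genes were not members because they lacked Jchain and Mzb1.

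The rule was met by 2.95% of the barcodes kept in WT (95% Clopper-Pearson interval 2.79% to 3.12%) and 0.252% in EC-iCD45KO (0.198% to 0.317%). The difference, EC-iCD45KO minus WT, was -2.70 percentage points (Newcombe interval -2.88 to -2.52). These and all later intervals cover counting error only, not the spread between mice or preparations. With at least 4 rule genes the shares were 0.666% and 0.0656%, after thinning every barcode to 1000 UMIs 1.26% and 0.165% (9874 and 9563 shallower barcodes left out), and with members of at least 40% Ig UMIs, a set chosen after the data were seen, 0.463% (183 barcodes) and 0.0173% (5 barcodes). The direction was the same under each of these rules. B cells, called by markers, were also scarcer in EC-iCD45KO, 429 barcodes against 8722 in WT. Cd79a, 1 of these markers, was in 48.9% of the WT barcodes that were not members, B cells included, and in 4.62% of those of EC-iCD45KO. The part of free RNA in these counts was not tested.

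Antibody RNA, which the rule did not use, checked the label. Genes of Ig constant and variable segments (392 genes) took 25.1% of the UMIs of the WT plasma cells and 21.9% of those of EC-iCD45KO, against 1.12% and 0.910% in the B cells. The median over single plasma cells was 10.4% in WT (quartiles 1.52% and 30.2%, highest 85.1%) and 21.7% in EC-iCD45KO (12.4% and 25.3%, highest 72.5%). The plasma cells, 2.95% and 0.252% of the barcodes, held 68.0% and 65.9% of all Ig UMIs of their library. The rule also missed some: 396 WT barcodes and 33 EC-iCD45KO barcodes outside it had at least 20% Ig UMIs, with a median of 2 rule genes and of 1244.5 and 1259 UMIs.

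The members fell along a wide range of Ig content, which was divided at 5% and 40% after the data were seen. In WT 490 members lay below 5%, 493 between 5% and 40% and 183 at or above 40%, with median depths of 3766, 1737 and 10172 UMIs. In EC-iCD45KO the numbers were 16, 52 and 5, with median depths of 10689.5, 1593.5 and 22138 UMIs. The plot of Ig share against depth shows these levels for every barcode.

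**Figure D1:**
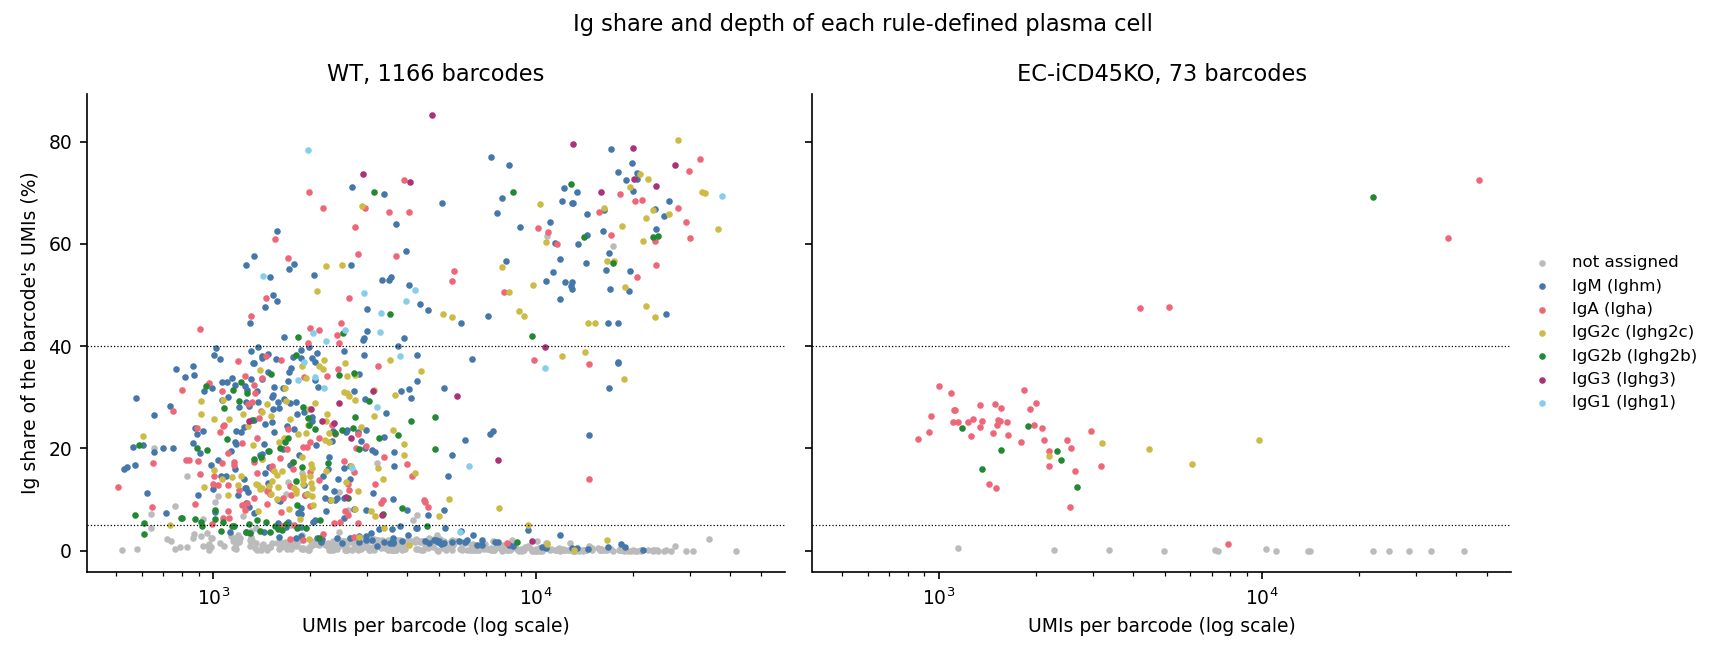
Share of Ig UMIs (%) against UMIs per barcode (log scale) for each of the 1166 WT and 73 EC-iCD45KO plasma cells, 1 point per barcode, coloured by the leading heavy chain constant gene, with dotted lines at 5% and 40%. In WT, 183 barcodes lie at or above 40% and 490 below 5%, while in EC-iCD45KO 52 of 73 lie between the lines.

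The members below 5% Ig had little of the antibody RNA that defines a plasma cell, and many members of every band also met the marker rule of another cell type. In WT these were 451 of 490 below 5%, 370 of 493 between 5% and 40% and 90 of 183 at or above 40%. Below 5%, 226 met the rule of B cells, 247 that of macrophages and 218 that of fibroblasts. The 6 fibroblast markers summed to 10158 CPM there, against 2843 CPM between 5% and 40% and 130 CPM at or above 40%, where Dpt was at 0. In EC-iCD45KO 15 of 16, 42 of 52 and 5 of 5 members met another rule, and the fibroblast markers summed to 12318, 10057 and 405 CPM. Irf4, Prdm1 and Eaf2 were at 0 UMIs in the sum of the 16 members below 5%. The members below 5% are called members with low Ig content below and are given no cell type.

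At or above 40%, most of 12 regulators of the plasma cell program stood above B cells in both libraries. These were 10 in WT (4645 of 15722 over all genes) and 11 in EC-iCD45KO (2621 of 9968). In WT, Cdkn1b (72.8 against 123 CPM) and Zbtb20 (504 against 524 CPM) stood below B cells. Prdm1, the gene of BLIMP-1, stood at 51.1 CPM in WT against 4.12 CPM in B cells, and Irf4 at 236 against 123 CPM. Eaf2, an ELL-associated elongation factor, stood at 577 against 15.5 CPM, and Tent5c, a poly(A) polymerase that stabilises Ig messages, at 638 against 40.3 CPM. The 5 EC-iCD45KO members of this kind had 228 CPM of Irf4, 279 CPM of Eaf2 and 405 CPM of Tent5c. Their Irf4 rested on 9 UMIs and their Prdm1 (101 CPM) on 4 UMIs, so these levels are imprecise.

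**Figure D2:**
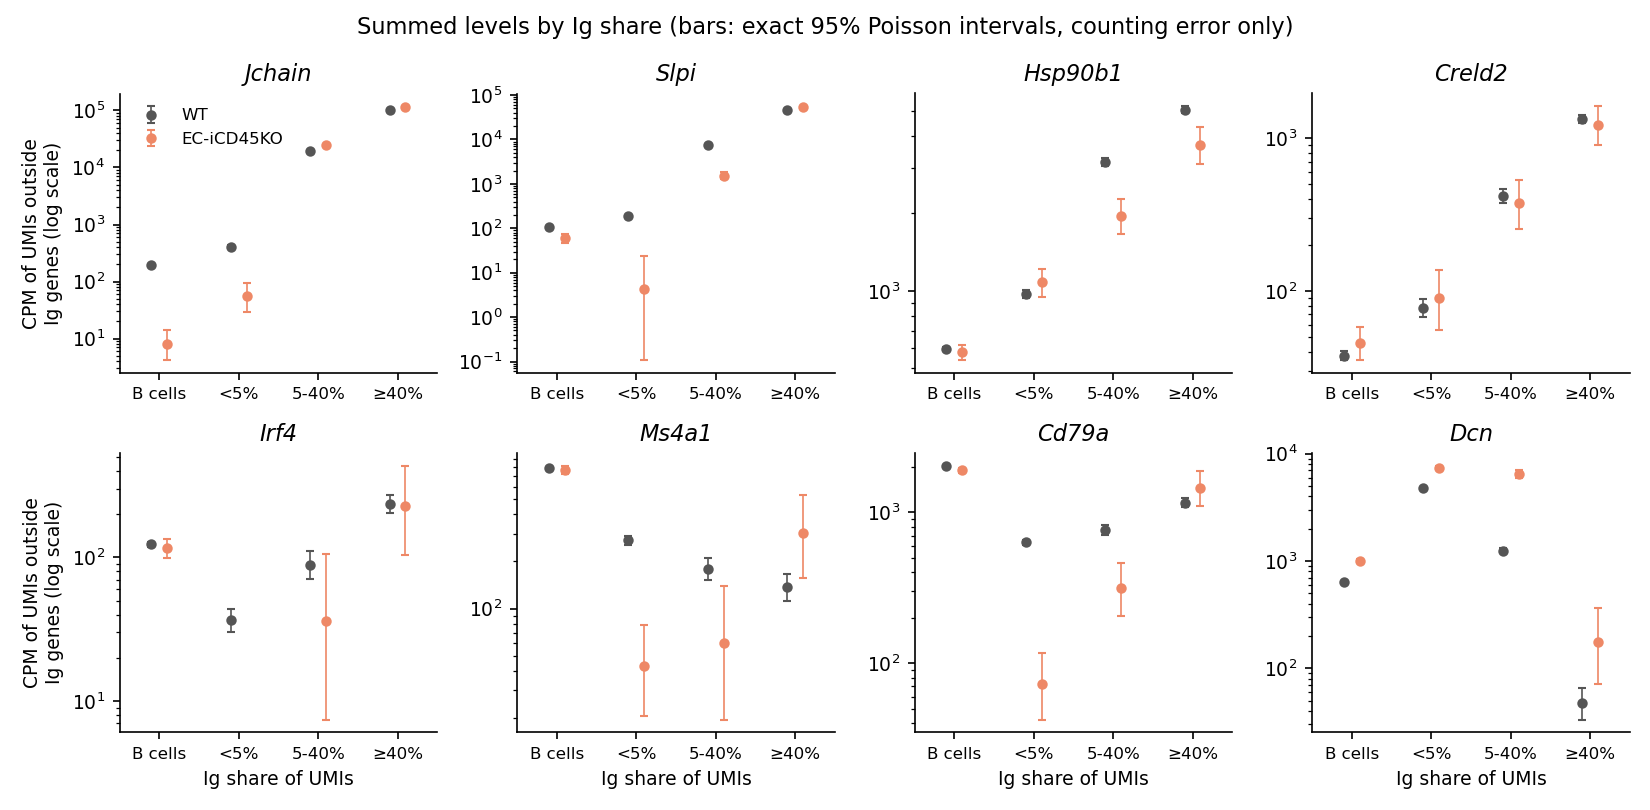
Summed level (CPM of UMIs outside Ig genes, log scale) of 8 genes in B cells and in plasma cells with an Ig share below 5%, of 5 to 40% and of at least 40%, in WT (grey) and EC-iCD45KO (orange), with exact 95% Poisson intervals. A level of 0 is not drawn (Irf4 below 5% in EC-iCD45KO). In WT, Creld2 stands at 37.7 CPM in B cells and 1335 CPM at or above 40% Ig, and Dcn, a fibroblast gene, at 4803 CPM below 5% and 47.2 CPM at or above 40%.

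The heavy chain constant gene names the antibody class. A member was assigned where it had at least 10 heavy chain constant UMIs and 1 gene held at least 75% of them. In WT 756 of 1166 members were assigned: 294 had too few UMIs and 116 no leading gene. IgM (Ighm) led in 332 (43.9%, 40.3% to 47.5%), IgA (Igha) in 149 (19.7%, 16.9% to 22.7%) and the IgG classes together in 275 (36.4%). Among the IgG members Ighg2c led in 146, Ighg2b in 86, Ighg3 in 22 and Ighg1 in 21, and no member was led by Ighd or Ighe, which allows a share of up to 0.397% by 3 counts of the total and 0.487% by the exact interval.

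The EC-iCD45KO members had another class makeup. Of 58 assigned, 45 were IgA (77.6%, 64.7% to 87.5%), 8 were led by Ighg2b (13.8%) and 5 by Ighg2c (8.62%). IgM led in 0 of 58, which allows a share of up to 5.17% (3 counts of the total, while the exact interval in the plot reaches 6.16%). The IgA share was 57.9 percentage points higher in EC-iCD45KO (Newcombe interval 45.3 to 67.1) and the IgM share 43.9 points lower (-47.5 to -36.8). The IgG share differed by -14.0 points (-23.4 to -1.26). These shares and intervals count each barcode as a cell, while 8 and 8 of the 45 IgA members and the 5 led by Ighg2c in EC-iCD45KO share variable genes, as given below. Separate cells and RNA of 1 cell in several barcodes cannot be told apart there. In the plot of class shares the IgM and IgA intervals of the libraries do not overlap, and those of Ighg2b and Ighg2c do.

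**Figure D3:**
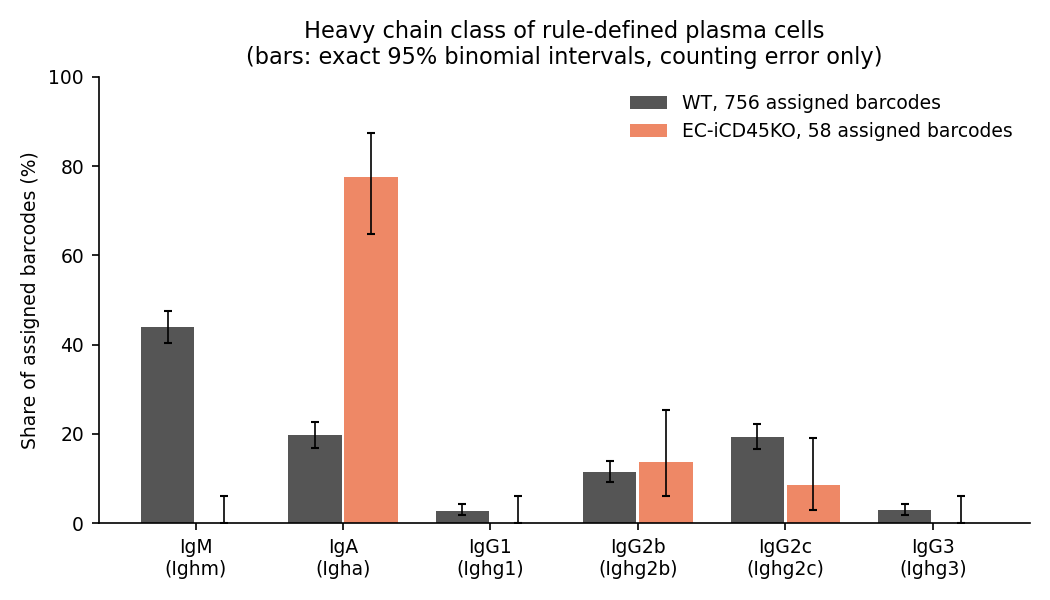
Share of assigned plasma cells (%) by leading heavy chain constant gene in WT (756 assigned) and EC-iCD45KO (58 assigned), bars starting at 0, with exact 95% binomial intervals. IgM stands at 43.9% in WT and 0% in EC-iCD45KO, and IgA at 19.7% and 77.6%.

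Among assigned members, whose leading gene had to hold 75%, it held at least 95% of the heavy chain constant UMIs in 640 of 756 in WT and in 58 of 58 in EC-iCD45KO. In the barcodes that were not members, B cells included, Ighm took 53.4% of heavy chain constant UMIs in WT and 54.6% in EC-iCD45KO, and Igha 12.6% and 26.9%. The WT makeup also varied with Ig content: IgM led in 68 of 100 assigned members below 5%, in 187 of 475 between 5% and 40% and in 77 of 181 at or above 40% (42.5%), where IgA led in 40 (22.1%). In EC-iCD45KO 4 of the 5 members at or above 40% were IgA and 1 was led by Ighg2b.

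Light chains were almost all kappa. With the same rule over Igkc against Iglc1, Iglc2 and Iglc3 together, 23 of 992 assigned WT members were lambda (2.32%, 1.48% to 3.46%) and 0 of 58 in EC-iCD45KO. Iglv1, a lambda variable gene, was an exception to this order. It was the leading light chain variable gene in 83 of the 125 WT members assigned, yet 472 of 969 kappa members (48.7%) had an Iglv1 UMI, against 6 of 23 lambda members (26.1%). Iglv1 was therefore left out of the light chain variable genes below, a choice made after the data were seen, and Iglv3 was likewise spread over all classes.

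Variable genes, which differ between B cell clones, were counted in few members, as only 84 WT members had 5 or more heavy chain variable UMIs. The 82 assigned used 40 genes, led by Ighv1-76 (7 members), Ighv1-53 (6) and Ighv2-3 (5). Among 57 WT members with a heavy and a light variable gene there were 44 combinations, 8 of them shared by 21 members. Ighv5-16 with Igkv1-117 occurred in 4 members, all led by Ighg3, with 13017 to 26951 UMIs. Ighv1-11 with Igkv10-96 occurred in 3 WT members, all led by Ighg2c, with 9824 to 16645 UMIs.

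With any UMI counted, single variable genes were found in groups of members of a class. In WT, Igkv4-86 was found in 19 of 149 IgA members and in 0 of 607 members of other classes, and Ighv9-1 in 8 of 86 members led by Ighg2b and in 0 of 670 others. In EC-iCD45KO, Igkv4-59 was found in 8 of 45 IgA members and in 0 of 13 others, and Igkv1-117 in another 8 of the 45 and in 1 of 13 others, with no IgA member holding both. With 13 other members, the EC-iCD45KO counts cannot show whether a gene was confined to IgA. These groups of members were named after their values were seen.

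Other counts of these EC-iCD45KO groups are given side by side. The 8 IgA members with Igkv1-117 all had Slpi UMIs (4 to 652 each) and a median of 7.16 Igkc UMIs per Igha UMI (2.08 to 10.7), with 997 to 47209 UMIs each. The 8 with Igkv4-59 had 0 to 2 Slpi UMIs and a median of 3.20 (2.65 to 4.17), with 929 to 2184 UMIs each. The Slpi counts of the groups do not overlap, while their chain ratios and depths do. All 5 members led by Ighg2c had Ighv1-11 or Igkv10-96, 0 Slpi UMIs and 17.0% to 21.6% Ig UMIs. In depth they ranged from 2199 to 9821 UMIs. Separate cells of a clone and RNA of the same cell in several barcodes cannot be told apart from these counts.

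The deepest members show the chain output of single barcodes. The deepest EC-iCD45KO member had 47209 UMIs, 72.5% of them Ig, with 10974 of Igha, 22842 of Igkc, 2233 of Jchain and 652 of Slpi, and used Ighv6-3 with Igkv1-117. The next with at least 40% Ig had 37934 UMIs with 413 of Igha, 22049 of Igkc and 1744 of Jchain. The deepest WT member with at least 40% Ig had 37871 UMIs with 3715 of Ighg1, 22239 of Igkc and 120 of Jchain.

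Against B cells of the same library, genes of protein folding and secretion stood higher in the plasma cells and genes of B cell identity lower. Values are log2 ratios of summed CPM outside Ig genes, read beside 16180 genes in WT, of which 15.5% were at least 2-fold higher and 6.93% at least 2-fold lower in plasma cells, with a median of 0.0065. Of the 23 ER chaperones and folding enzymes, 22 were higher in WT, 15 of them at least 2-fold, with a median of 1.26 (median of the genes' own interval limits 1.11 and 1.40). Of 34 genes of translocation into the ER and of vesicle transport, 32 were higher and 22 at least 2-fold (median 1.18), and of 12 genes of ER-associated degradation all 12 were higher and 5 at least 2-fold (median 0.88).

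In EC-iCD45KO, 17.1% of 10702 genes were at least 2-fold higher and 18.8% at least 2-fold lower, with a median of -0.06. The chaperones had 21 of 23 higher, 13 at least 2-fold (median 1.07), the secretory genes 30 of 34 and 16 (median 0.95), and the degradation genes 11 of 12 and 5 (median 0.74). Restricting both libraries to members with at least 20% Ig raised the chaperone median to 2.34 in WT and 2.14 in EC-iCD45KO, and the degradation median to 1.89 and 1.46. At or above 40% Ig the degradation medians were 2.17 and 2.14, with all 12 genes higher in both. Of all genes counted there, 4645 of 15722 in WT and 2621 of 9968 in EC-iCD45KO were higher. The plot of these lists shows the position of each gene.

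**Figure D4:**
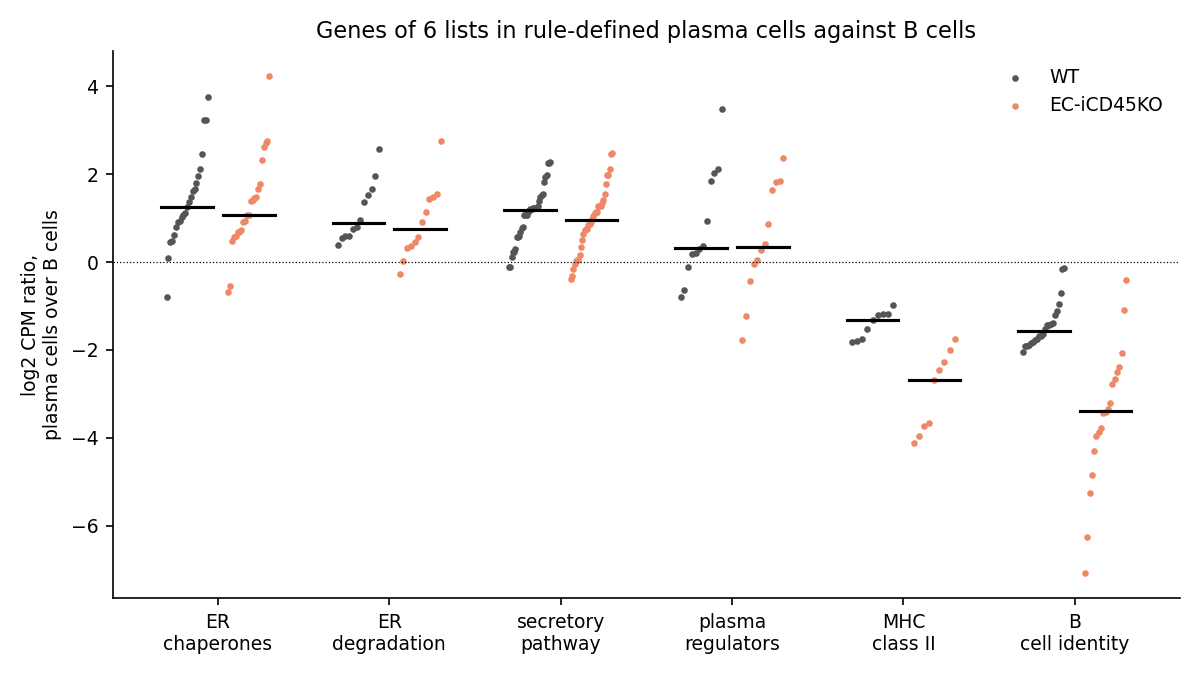
Log2 ratio of CPM in plasma cells over B cells of the same library for each gene of 6 lists, WT in grey and EC-iCD45KO in orange, with the list median as a black line. Genes at 0 in a sum are not drawn. The 3 lists of ER and secretory genes lie mostly above 0 in both libraries, while every gene drawn of the MHC class II and B cell identity lists lies below 0. Spib, Cr2 and Cxcr5 are at 0 UMIs in the EC-iCD45KO members and are not drawn there.

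Among the chaperones, Fkbp11, a prolyl isomerase of secretory cells, was at 161 CPM in WT plasma cells against 12.01 CPM in B cells (log2 3.75, 3.55 to 3.95), and at 179 against 9.49 CPM in EC-iCD45KO (4.24, 3.39 to 5.19). Hsp90b1 (GRP94), a chaperone of Ig chains and Toll-like receptors, was at 2068 against 594 CPM in WT and 1570 against 576 CPM in EC-iCD45KO. Hspa5 (BiP), which holds unassembled heavy chains, differed less, 1362 against 984 CPM in WT (log2 0.47) and 1374 against 907 CPM in EC-iCD45KO (0.60). Txndc5, a disulfide isomerase, had log2 ratios of 3.23 and 2.70, and Creld2, an ER stress gene, of 3.22 and 2.62. Ero1lb, an oxidase that reloads disulfide isomerases, stood on the other side of 0 over all members of both libraries (-0.80 and -0.69). At or above 40% Ig all 23 chaperones, Ero1lb among them, stood above B cells in both, beside the shares of all genes given above.

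In the degradation list Edem2, a mannosidase that marks misfolded glycoproteins, led with log2 ratios of 2.58 in WT and 2.76 in EC-iCD45KO. Herpud1, a partner of the HRD1 ubiquitin ligase, had 1.53 and 1.55. In the secretory list Lman1, a cargo receptor from the ER to the Golgi, had 2.27 and 1.99, Spcs3, of the signal peptidase, 2.25 and 2.47, and Ssr4, of the translocon, 2.24 and 2.12. Each of these 5 genes stood higher than in B cells in both libraries.

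Promoters of 7 chaperones held a sequence that is known from the unfolded protein response. The ER stress element, CCAAT followed by 9 bases and CCACG, was searched on both strands in RefSeq promoters (GRCm38.p6, 250 bases before to 50 after the start site). It lay in 35 of 27025 promoters (0.130%) and in 7 of the 20 chaperones that matched an entry (35%): Hspa5, Hsp90b1, Calr, Canx, Pdia6, Dnajc3 and Creld2. It lay in 1 of 11 degradation genes (Syvn1), in 1 of 5 rule genes (Derl3), and in 0 of 26 secretory, 0 of 13 B cell identity and 0 of 6 MHC class II genes. TGACGTG, a motif of ATF6 and XBP1, which overlaps the first element in none of the 4 promoters shown, was found in 1.99% of all promoters, in 2 of 20 chaperones (Hspa5 and Txndc11), 2 of 11 degradation genes (Ube2j1 and Vcp), 2 of 26 secretory genes (Srpr and Sec24d) and 0 of the B cell identity, MHC class II and rule genes. A match is a description of letters, not of a factor bound there.

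The 250 bases before the start site are shown for 3 chaperones with the element and for Derl3, 5′ to 3′ on the strand of the gene, with the matches to either motif in capitals. Hspa5 lies at chr2:34771840-34772089 (plus strand), Hsp90b1 at chr10:86705445-86705694 (minus), Creld2 at chr15:88819396-88819645 (plus) and Derl3 at chr10:75893148-75893397 (plus).
Hspa5: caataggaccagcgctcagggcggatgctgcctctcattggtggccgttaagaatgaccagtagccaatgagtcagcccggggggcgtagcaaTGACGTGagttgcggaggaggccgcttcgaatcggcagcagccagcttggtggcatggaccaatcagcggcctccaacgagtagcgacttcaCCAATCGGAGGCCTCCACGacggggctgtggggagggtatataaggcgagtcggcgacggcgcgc
Hsp90b1: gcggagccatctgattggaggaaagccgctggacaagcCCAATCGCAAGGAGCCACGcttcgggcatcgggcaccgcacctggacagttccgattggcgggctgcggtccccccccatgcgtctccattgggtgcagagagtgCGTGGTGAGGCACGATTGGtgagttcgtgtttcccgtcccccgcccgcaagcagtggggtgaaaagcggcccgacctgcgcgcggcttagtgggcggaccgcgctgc
Creld2: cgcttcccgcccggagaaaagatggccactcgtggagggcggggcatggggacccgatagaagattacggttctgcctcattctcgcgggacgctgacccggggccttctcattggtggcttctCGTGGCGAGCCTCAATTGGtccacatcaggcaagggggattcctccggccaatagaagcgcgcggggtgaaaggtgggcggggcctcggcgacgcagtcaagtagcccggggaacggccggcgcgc
Derl3: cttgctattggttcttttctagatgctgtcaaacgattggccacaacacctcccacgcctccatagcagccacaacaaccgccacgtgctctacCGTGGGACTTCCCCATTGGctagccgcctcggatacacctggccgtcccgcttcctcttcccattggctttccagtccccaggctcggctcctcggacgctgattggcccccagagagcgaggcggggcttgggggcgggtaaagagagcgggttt
Hspa5 carried the ER stress element 46 bases before the start site and TGACGTG 150 bases before it. Hsp90b1 carried 2 copies on opposite strands, 193 and 88 bases before the start, and the copies of Creld2 and Derl3, 107 and 137 bases before it, were on the opposite strand. Derl3, in which the element was also found, was at 134 CPM in WT plasma cells against 2.23 CPM in B cells, but its level belongs to the rule.

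Regulators of the plasma cell program, transcription factors for the most part, lay on both sides of the B cell level over all members. Of 12 regulators, 9 were higher than in B cells in WT, 4 at least 2-fold (median 0.33), and 8 in EC-iCD45KO, 4 at least 2-fold and 2 at least 2-fold lower (0.34). The medians were larger in members with more Ig: 1.36 in WT (10 of 12 higher) and 1.01 in EC-iCD45KO (12 of 12) with at least 20%, and 1.56 (10 of 12) and 1.88 (11 of 12) at or above 40%. Of all genes counted, 5376 of 15769 in WT and 3686 of 10095 in EC-iCD45KO were higher with at least 20%. At or above 40% these numbers were 4645 of 15722 and 2621 of 9968. Eaf2 had log2 ratios of 3.49 and 1.82, and Creb3l2, an ER-anchored factor for secretory genes, of 2.12 and 2.37. Prdm1 had 1.83 in WT (1.36 to 2.29) and 1.63 in EC-iCD45KO on 6 UMIs (-0.18 to 3.35). Irf4 lay below B cells over all members, -0.63 and -1.78, whereas in members with at least 40% Ig it was above them (236 against 123 CPM in WT).

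Genes of B cell identity and of antigen presentation were lower. All 22 identity genes had a ratio below 0 in WT, 18 at least 2-fold lower (median -1.58), and 21 of 22 were at least 2-fold lower in EC-iCD45KO (-3.38). All 9 MHC class II genes were below B cells in both libraries, 8 at least 2-fold in WT and 9 in EC-iCD45KO. Pax5, the factor that maintains B cell fate, was at 93.9 against 300.3 CPM in WT and at 14.0 against 400.1 CPM in EC-iCD45KO. Ms4a1 (CD20) was at 233 against 791 CPM and at 75.6 against 770 CPM. The markers that chose the B cells, Ms4a1, Cd79a and Ly6d among them, are in this list, so their ratios are set in part by that choice.

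Members with low Ig content carried part of these B cell messages in WT. Kept WT barcodes that were not members, B cells included, had 256 CPM of Ms4a1, 128 CPM of Pax5, 786 CPM of Cd79a and 323 CPM of Cd79b. These messages are thus not particular to the members. Ms4a1 was at 273 CPM below 5%, 179 CPM between 5% and 40% and 137 CPM at or above 40%, and Pax5 at 111, 86.8 and 34.5 CPM. Cd79a, the Ig signalling partner that plasma cells can retain, went the other way, with 631, 765 and 1159 CPM. So did its partner Cd79b (349, 357 and 568 CPM) and the surface proteins Ly6d (385, 707 and 966 CPM) and Cd24a (138, 265 and 396 CPM). Cd74, the MHC class II invariant chain, was at 6526, 8973 and 9099 CPM, all under the 16918 CPM of B cells.

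Beyond the lists, the rule for named genes gave those with the largest ratio to B cells in both libraries. Slpi, a secreted inhibitor of leukocyte proteases, was at 9386 against 107 CPM in WT (log2 6.45, 6.39 to 6.51) and 6308 against 59.0 CPM in EC-iCD45KO (6.74, 6.43 to 7.07). It was detected in 57.6% of WT and 56.2% of EC-iCD45KO plasma cells, and in 11.7% and 3.96% of B cells (median 2112.5 and 2751 UMIs). Prg2, known as the eosinophil major basic protein, was at 231 against 2.36 CPM in WT (6.61) and at 188 CPM against 0 UMIs in EC-iCD45KO B cells, so these genes cannot be ranked against each other there. Ly6c2, a surface antigen of monocytes and plasma cells, had log2 ratios of 3.64 and 3.61, and Pon3, a lactonase, of 3.26 and 3.44. Timp1 (3.40 and 3.57), Lum (2.96 and 3.24) and Vcam1 (2.83 and 4.18), genes of fibroblasts or other stromal cells, were also named by the rule. Hp (2.82 and 4.14) and the uncharacterised Gm30211 (3.05 and 2.93) complete the list with Fkbp11.

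Slpi followed Ig content in both libraries. In WT it was at 185 CPM below 5%, 7552 CPM between 5% and 40% and 47117 CPM at or above 40%. In EC-iCD45KO the levels were 4.26, 1526 and 53853 CPM, the first resting on 1 UMI. Lum and the other fibroblast genes did not: the fibroblast markers, Lum among them, were lower at higher Ig content in WT, as given above. In EC-iCD45KO they summed to 10057 CPM between 5% and 40%, and to 405 CPM at or above 40%.

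Survival and homing genes showed no common direction against B cells. Of 13 survival genes 7 were higher in WT, 1 at least 2-fold, and the list median was 0.02. The gene at least 2-fold higher was Slamf7, a surface receptor of plasma cells, at 145 against 47.0 CPM, and it reached 506 CPM in WT and 836 CPM in EC-iCD45KO at or above 40% Ig. Tnfrsf13c, the BAFF receptor of B cells (78.4 against 172 CPM), and Cd38, an ectoenzyme (32.5 against 80.1 CPM), were at least 2-fold lower. Tnfrsf13b (TACI), a receptor for BAFF and APRIL, was at 79.3 against 72.7 CPM over all WT members and at 263 CPM at or above 40%. Of 18 homing genes 11 were higher in WT, 4 at least 2-fold and 3 at least 2-fold lower (median 0.11). Klf2, a factor of recirculating lymphocytes, had a log2 ratio of -1.21.

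Ccr10, the receptor that draws IgA plasma cells to mucosal surfaces, was rare in WT, with 39 UMIs in 24 of 1166 members (8.29 CPM), and 9 UMIs in the 8722 B cells. In EC-iCD45KO 25 UMIs lay in 7 of 73 members (70.0 CPM), 21 of them in the 5 members at or above 40% Ig. Within the WT members at or above 40%, 14 of 40 IgA members (35.0%) had a Ccr10 UMI, against 1 of 77 IgM members and 0 of 33 led by Ighg2c. The IgA members were the shallower ones, with a median of 1505.5 UMIs outside Ig genes against 3814 and 5668. Cxcr3, a receptor for interferon-induced chemokines, had a UMI in 8 of 33 members led by Ighg2c, 3 of 77 IgM and 1 of 40 IgA members.

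The antibody class went with other differences among the WT members at or above 40% Ig. These barcodes come from 1 library and are no replicates, so they are described without a test. Slpi was at 118398 CPM in the 33 members led by Ighg2c and 99191 CPM in the 11 led by Ighg2b, against 14204 CPM in the 77 IgM and 8219 CPM in the 40 IgA members. The medians over single members were 78261, 19309, 4957 and 2344 CPM, and the quartiles of Ighg2c (22757 and 156518 CPM) lay above those of IgM (481 and 11614 CPM).

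Jchain, a rule gene whose level is a description only, ran the other way over these classes, as the plot of both genes shows. Its summed level was 176651 CPM in IgA, 124610 CPM in IgM, 45635 CPM in Ighg2c and 32327 CPM in Ighg2b members. Single members of these classes overlapped in both genes. Mzb1, another rule gene, was at 3645 CPM in IgM and 6803 to 8133 CPM in the other 3 classes. The 11 members led by Ighg1 and the 9 led by Ighg3 are drawn in the plot but were not summed here.

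**Figure D5:**
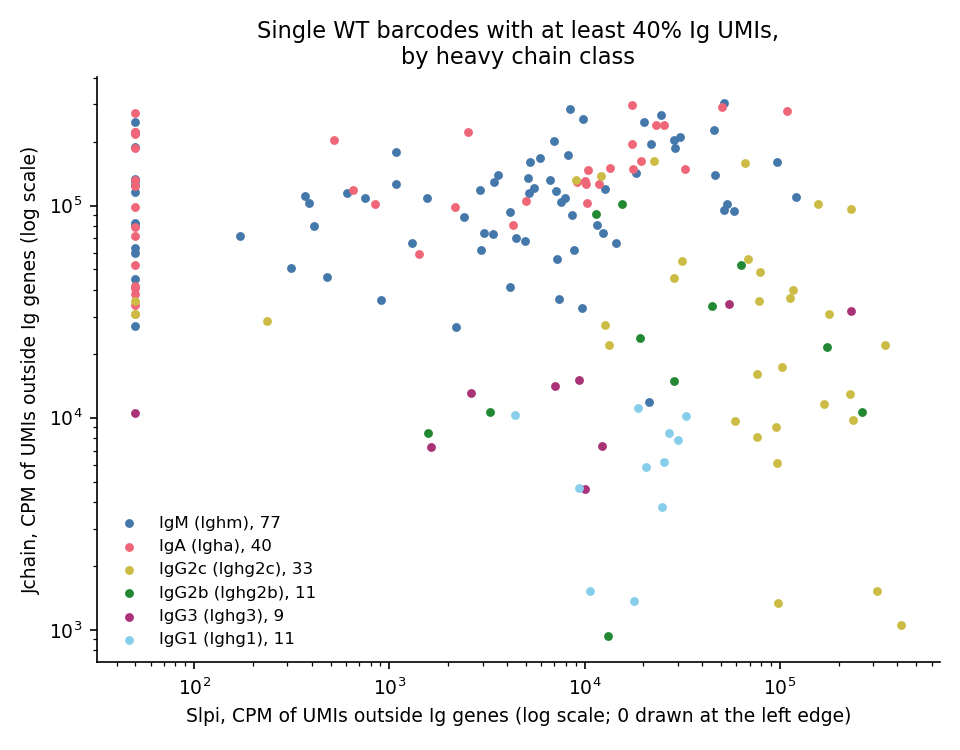
Jchain against Slpi (CPM of UMIs outside Ig genes, both log scales) in each WT plasma cell with at least 40% Ig UMIs, 1 point per barcode coloured by heavy chain class, with a Slpi level of 0 drawn at the left edge. Most Ighg2c members lie to the right (median Slpi 78261 CPM), and most IgM and IgA members lie higher and further left (median Slpi 4957 and 2344 CPM).

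Further genes were picked among those of at least 300 CPM after their values were seen, and they form no group. Ly6c2 was at 2865 CPM in Ighg2c and 1569 CPM in Ighg2b members, against 739 CPM in IgM and 821 CPM in IgA. Epcam, an adhesion molecule, was at 376 and 372 CPM, against 93.5 and 160 CPM. Between the 40 IgA and the 64 IgG members, Ly6a (Sca-1) had a log2 ratio of -1.49 and Zbtb20, a zinc finger factor of plasma cells, of -1.23. Txndc5 (1.41) and Glipr1 (1.98) were higher in IgA than in IgG. Txndc5 was at 2998 CPM in IgA, 1130 CPM in IgG and 2522 CPM in IgM members, and Glipr1 at 481, 122 and 206 CPM. Sel1l, the adaptor of the HRD1 ligase, was at 621 CPM in IgA, 339 CPM in IgG and 271 CPM in IgM members.

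Between the libraries, over all members, the secretory program of the plasma cells differed little and the B cell genes differed most among the lists. Over 13170 genes the median log2 ratio, EC-iCD45KO over WT, was 0, with 10.0% at least 2-fold higher and 10.3% at least 2-fold lower. None of the 23 chaperones, 12 degradation genes or 34 secretory genes was past 2-fold (medians -0.05, -0.33 and -0.08, with median limits of -0.39 and 0.24 for the chaperones). The 22 B cell identity genes were all below WT, 20 at least 2-fold (median -1.77), as were the 9 MHC class II genes, 5 at least 2-fold (-1.45). In the B cells of the same libraries these medians were -0.01 and 0.02.

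The B cell markers were lower in EC-iCD45KO in the other barcodes too. The 6 markers, which overlap this list, summed to 1985 CPM in WT members and 596 CPM in EC-iCD45KO members, and to 1947 and 154 CPM over all kept barcodes that were not members, B cells included. B cell markers were met by 364 of 1166 WT and 5 of 73 EC-iCD45KO members. With members of at least 20% Ig the identity median was -0.71 and the MHC class II median -0.78. Without members that met another class rule (255 and 11 barcodes), 9 of 17 identity genes and 5 of 9 MHC class II genes had 0 UMIs in EC-iCD45KO, and 3 and 0 stood above WT. Over the 183 and 5 members at or above 40%, 10 of 20 identity genes had 0 UMIs in EC-iCD45KO and 2 stood above WT. The medians of these small sets were 0 for identity, so they give no size. Nor do their counts at 0 UMIs, which are not set against the share of all genes at 0 there. Over all 7106 genes counted at or above 40%, 2512 stood above WT, with a median of 0. The MHC class II median was -0.18 at or above 40% (median limits -0.52 and 0.42), with 1 of 8 genes above WT, against -1.45 over all members.

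The largest rises of single genes in EC-iCD45KO mostly rested, over all members, on 1 or a few barcodes. Among 1603 genes whose mean reached 100 CPM, 104 were at least 2-fold higher and 71 at least 2-fold lower in EC-iCD45KO. With at least 4 rule genes 78 were higher and 99 lower of 1373, and at or above 40% Ig 96 and 137 of 1196. The largest ratio was that of Mmp12, a macrophage elastase, with 380 UMIs in 2 EC-iCD45KO members (1063 against 58.0 CPM), 89.5% of them in 1 barcode of 42287 UMIs with 0.00236% Ig. The same barcode held 94.8% of the Gpnmb, 87.0% of the Ctsl, 64.9% of the Ccl6 and 51.2% of the Ccl9 UMIs, all genes of macrophages. Hp, Igfbp5, Sorbs2, Gas1 and Lcn2 complete the 10 largest, with log2 ratios of 3.14, 3.02, 2.76, 2.70 and 2.47. For Hp, 77.9% of the EC-iCD45KO UMIs lay in 1 barcode with 0% Ig. For Sorbs2 76.4% lay in 1 barcode, and its ratio was -0.051 with at least 20% Ig and -0.69 with at least 4 rule genes. With at least 20% Ig, Igfbp5 had 5.49, Lcn2 4.81, Gas1 4.63, Ccl6 3.14, Gpnmb 2.70, Ccl9 2.43, Ctsl 1.69 and Hp 1.43, and Mmp12 had no ratio. For Lcn2 1 barcode held 23.9% of the EC-iCD45KO UMIs. Its ratio was 2.79 in the B cells and 1.49 in barcodes that were neither members nor B cells.

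The lowest ratios were of 2 kinds. Ibsp, a bone matrix protein, was at 2189 CPM in WT and 5.60 CPM (2 UMIs) in EC-iCD45KO, with 35.6% of its 10302 WT UMIs in 1 barcode of 0.0228% Ig. Chad and Mmp13, of cartilage and bone matrix, were at 262 against 2.80 CPM (1 UMI) and at 196 against 8.40 CPM (3 UMIs). For Hbb-bs, a haemoglobin chain (-3.87), 84.4% of the WT UMIs lay in 1 barcode, and the ratio was 2.14 without members that met another class rule. Rgs5, a gene of pericytes (-2.25), had 33.9% of its WT UMIs in 1 barcode.

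The other genes with low ratios are known from B cells and had UMIs in 423 to 628 of 1166 WT members and in 8 to 18 of 73 EC-iCD45KO members. In EC-iCD45KO 8 members had Cd37 UMIs, 52.4% of them in 1 barcode, which also held 45.8% of the Bank1 UMIs. Bach2, a repressor that delays plasma cell fate, had UMIs in 584 of 1166 WT and 13 of 73 EC-iCD45KO members (324 against 58.8 CPM). Bank1, a B cell scaffold protein, was at 365 against 67.2 CPM, Cd37, a tetraspanin, at 287 against 58.8 CPM, Aff3 at 184 against 42.0 CPM and Ly6d at 543 against 126 CPM. In the B cells, the ratios of these 5 genes lay between -0.09 and 0.11, and in the barcodes that were neither members nor B cells between -3.79 and -1.28. With at least 20% Ig the ratios were -1.38 for Bach2, -1.28 for Bank1, -2.87 for Cd37, -1.64 for Aff3 and -2.45 for Ly6d. At or above 40% they were -0.29 for Bach2, -1.91 for Bank1 and -3.67 for Ly6d, from 2 to 5 EC-iCD45KO UMIs a gene, with no UMI of Cd37 or Aff3. Bank1 had a ratio of 0.43 without members that met another class rule.

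Ptprc, the gene deleted in endothelial cells, was also measured in the plasma cells. Of these, 40 in WT and 3 in EC-iCD45KO met the endothelial marker rule. Ptprc was at 360 CPM in WT (343 to 377) and 148 CPM in EC-iCD45KO (111 to 194, 53 UMIs), a log2 ratio of -1.28 (-1.70 to -0.88). By Ig content, the WT levels were 340, 499 and 277 CPM and the EC-iCD45KO levels 46.9, 300.4 and 431 CPM. The EC-iCD45KO level was low in the 16 members with low Ig content, which include the 3 with endothelial markers. With at least 20% Ig the ratio was 0.069, at or above 40% 0.64 and with at least 4 rule genes 0.043. In the B cells Ptprc was at 692 and 962 CPM (0.47).

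Members with cell cycle genes were few after thinning. After thinning to 500 UMIs outside Ig genes, 13 of 1154 WT members (1.13%, 0.601% to 1.92%) had a UMI in at least 3 of 15 cell cycle genes, and 1 of 73 EC-iCD45KO members (1.37%, 0.0347% to 7.40%). Over 20 draws of the thinning the counts ran from 11 to 22 and from 0 to 1. Without thinning they were 132 of 1166 (11.3%) and 5 of 73 (6.85%). Of the 13 WT members, 7 of 490 had under 5% Ig (1.43%) and 6 of 482 had between 5% and 40% (1.24%, with a median Ig share of 25.3%), and over the draws the counts ran from 5 to 12 and from 5 to 13. The EC-iCD45KO member had 0.00236% Ig. The B cells had 0.585% and 0.935% after thinning. Of the WT members at or above 40% Ig, 0 of 182 were cycling in the draw reported, which allows a share of up to 1.65% by 3 counts of the total (2.01% by the exact interval) at this thinned depth, and 9 of 183 (4.92%, 2.27% to 9.13%) without thinning.

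Stress, nutrient and cytokine genes gave no further group. Of 8 genes of the ATF4 arm of the stress response 6 were above B cells in WT, 2 at least 2-fold (median 0.09), and 1 of the 5 counted in EC-iCD45KO. Of 12 genes of amino acid supply and metabolism 9 were above B cells in WT, 2 at least 2-fold (0.55), and 7 in EC-iCD45KO. Of the 10 cytokine and regulatory genes counted, 4 were above B cells in WT (-0.27). All 15 cell cycle genes were counted in WT, 13 above B cells and 7 at least 2-fold (0.89), and in EC-iCD45KO all 14 counted were above B cells, 10 at least 2-fold (2.14). The EC-iCD45KO values rest on few barcodes, since the 35 Rrm2 UMIs and the 11 Cdk1 UMIs each lay in 1 barcode below 5% Ig, and no UMI of either, of Mki67 or of Top2a was in the 52 members between 5% and 40%. With at least 20% Ig, 1 of 9 genes counted was above B cells there (-0.14), and at or above 40% 4 of 9. Over all genes counted in these EC-iCD45KO sets, 3686 of 10095 and 2621 of 9968 were above B cells. In WT members at or above 40% Ig, 1 of 15 cell cycle genes was above B cells (-1.11), against 4645 of 15722 over all genes (-0.17).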

How the data were processed

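Aortic cells of 2 groups, 1 10x Genomics library each, were analysed. The deposited matrices hold whole-number UMI counts per gene and barcode, made by the authors with Cell Ranger 7.1.0 on mm10, per the submitters' processing notes. Annotation, intron counting, cell calling and strand use were not given in the sources used here. Every deposited barcode had at least 500 UMIs.

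Groups came from the labels, and pooling of animals was not given. Counts were summed over the barcodes of a set and scaled to CPM of UMIs outside 392 Ig genes, since Ig genes take a large and varying part of plasma cell UMIs. Genes with at least 10 UMIs over both sums entered the list ratios, and a gene at 0 in 1 sum took its interval limit nearest to 0, or 0 where the interval held 0. With 1 library per group no test and no p-value was computed. A fold of 2 alone marked a difference, where the plan had also asked for an interval apart from 0. Intervals are exact Poisson, Clopper-Pearson, Newcombe or conditional binomial at 95%. A list's interval is the median of its genes' limits.

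B, T and other cells were barcodes with at least 3 markers of a class. The sets of B, T and endothelial cells whose levels are given left out barcodes that met the plasma cell rule. No doublet caller was run. An alternative left out members that met another class rule. Thinning used a fixed seed. The statistics were tested on simulated data. Promoters came from RefSeq. Tables were handled with pandas 2.3.3 and numpy 2.4.6 under Python 3.11.15, intervals came from scipy 1.17.1 and plots from matplotlib 3.10.9.

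The named genes were all list members, the 10 with the largest smaller-of-both-libraries ratio to B cells at 100 CPM or more, and the 10 highest and lowest ratios between libraries at a mean of 100 CPM or more with an interval apart from 0, without Ig and sex-linked genes, and the variable genes used by most members. The members and lists were chosen with earlier results of these data known. Other features named in the text were chosen after their values were seen. Alternatives were a stricter filter (500 genes, 5% mitochondrial), at least 4 rule genes, no members of another class, at least 20% or 40% Ig, other class thresholds, CPM of all UMIs, means over single cells, other minima and other thinning depths.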

Additional observations from a re-analysis of the deposited data

Results flagged for a closer look

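For 4 genes the log2 ratio of EC-iCD45KO over WT in the plasma cells lay on the other side of 0 from that in the B cells of the same libraries, with both counting intervals apart from 0, and this difference was not tested. Mmp12 had 4.20 in the plasma cells and -2.01 in the B cells. Ibsp had -8.61 and 0.20, Rgs5 -2.25 and 0.97, and Ly6d -2.11 and 0.11. Mmp12 UMIs lay in 2 EC-iCD45KO members, and 1 WT member held 35.6% of the Ibsp and another 33.9% of the Rgs5 UMIs. Ly6d had UMIs in 628 WT and 18 EC-iCD45KO members. Igfbp5, Gpnmb, Sorbs2 and Gas1 also had opposite signs, but their intervals in the B cells held 0.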

How the results depend on the processing

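Over 522 alternatives for 73 results, the main comparisons kept their direction and size in 118, moved beyond their counting interval in 72 and changed sign in 3, and the other results in 233, 84 and 12. Cells of 1 library are no replicates, so these moves show dependence on the choice of barcodes and on scale. No paired analysis was possible because WT and EC-iCD45KO hold 1 library apiece. CPM of all UMIs lower every plasma over B ratio by a log2 shift of -0.40 in WT and -0.34 in EC-iCD45KO.

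The difference in plasma cell share was -0.600 points with at least 4 rule genes, -0.608 without members of another class, -0.946 and -0.446 with at least 20% and 40% Ig, and -1.09 after thinning. The Ig share in WT was 25.02% with the stricter filter, 52.0% with 4 rule genes, 55.3% without other classes and 10.4% as a median; in EC-iCD45KO it was 55.9% with 4 rule genes and 21.7% as a median. IgM in WT was 48.4% at a 50% lead, IgA 24.7% and lambda 5.13% without other classes, and IgA in EC-iCD45KO 100% without other classes and 88.1% with 20% Ig.

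For plasma over B cells in WT, in the order 4 rule genes, no other class, 20% Ig, 40% Ig and all UMIs, B cell identity was -2.25, -2.31, -2.14, -2.54 and -1.98, the chaperones 2.27, 2.35, 2.34, 2.47 and 0.85 (1.11 as single-cell means) and the secretory genes 1.84, 1.84, 1.86, 2.04 and 0.78. MHC class II was -1.95 with 4 rule genes, -1.78 with 20% Ig, -2.23 with 40%, -1.73 with all UMIs and -0.996 as single-cell means. In EC-iCD45KO, identity was -1.85, -0.13, -2.37 and -1.26 in the first 4 settings, the chaperones 2.17 with 4 rule genes, 2.14 with 20% and 2.46 with 40%, the secretory genes 1.43, 1.43 and 1.64 in these settings, and MHC class II -0.59 without other classes and -2.15 with 40%. Over all genes the EC-iCD45KO median at 40% was 0, with 4781 of 9968 genes at 0 UMIs in the 5 members and 2621 higher than in B cells.

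For EC-iCD45KO over WT, identity was -0.25 with 4 rule genes, 0 without other classes, -0.71 with 20% and 0 with 40% Ig. MHC class II was -0.49, 0 and, with 40%, -0.18, and the chaperones 0.28 as single-cell means. Genes 2-fold higher numbered 727 without other classes and 222 at 50 CPM. Genes 2-fold lower numbered 168 in each of these, 137 with 40% and 43 with all UMIs. Ptprc was 0.043 with 4 rule genes, -0.18 without other classes, 0.069 with 20%, 0.64 with 40% and -0.67 as single-cell means. Cycling members were 0% in WT with 40% Ig, 11.3% unthinned and 4.42% at 1000 UMIs, and 0% in EC-iCD45KO with 4 rule genes, without other classes and with 20% or 40% Ig.

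Further changes of sign were the regulators in WT with all UMIs (-0.075), the cell cycle list without other classes (-0.66) and with 40% Ig (-1.11) in WT, and with 20% Ig (-0.14) and as single-cell means (-0.21) in EC-iCD45KO, and the cytokines there (0.037 with 4 rule genes and 0.22 with 20% Ig). Sorbs2 was -0.69 with 4 rule genes and -0.051 with 20% Ig, and without other classes Hbb-bs was 2.14, Bank1 0.43 and Rgs5 0.21. The cause was not tested for any of these. A list value of 0 arises where many of its genes have 0 UMIs in EC-iCD45KO and an interval that holds 0. The EC-iCD45KO values rest on 73 barcodes and 357322 UMIs outside Ig genes, against 1166 and 4705978 in WT, and a gene at 100 CPM has few UMIs there.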
